A study of Aspergillus nidulans with 24 samples.

Results

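The conidiation regulators of the filamentous fungus Aspergillus nidulans are 10 genes that start and order the making of asexual spores, the conidia. They are fluG, flbA, flbB, flbE, flbD, flbC, brlA, abaA, wetA and stuA, chosen by gene name from the deposited expression table, and all 10 were found among its 8728 genes. The samples were mycelium of 2 strains grown for 9 to 11 h at 37 °C in 4 minimal media, each of the 8 groups holding 3 biological replicates, and 24 rRNA-depleted total RNA libraries were made. The sugar was 0.1% fructose or 1% glucose, and the nitrogen source was 5 mM urea or 10 mM ammonium tartrate; the media are called fructose-urea, fructose-ammonium, glucose-urea and glucose-ammonium below.

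The deletion strain lacked areB, which encodes a GATA-type transcription factor, and carried A.f. pyrG in its place. It also carried pyrG89, argB2, pabaB22 and riboB2, and a deletion of nkuA made with argB. The wild type carried areB and the mutation biA1. None of those other marker alleles was shared between the strains by the labels, so the loss of areB and the rest of the strain background cannot be told apart in any value below. The labels give no clone number for the deletion strain and do not say whether cultures were shaken. Tartrate was present only with ammonium, and the sugars differed in amount as well as in kind, so these pairs cannot be told apart either.

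Conidiation in this fungus is known as a cascade. FluG is needed for an extracellular signal, and the FlbA to FlbE proteins pass on or permit that signal until brlA is switched on. BrlA then starts conidiophore growth, AbaA acts in the spore-forming phialides, and WetA acts in the maturing spore. StuA shapes the conidiophore by restricting where brlA and abaA are used. In growing hyphae without spores the late genes of this cascade are known to be low.

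Every level below is the authors' mean of normalized counts over a group's libraries, with no spread of its own. The values were not divided by gene length, so levels are compared between groups for 1 gene and never between genes. Each log2 fold change is the authors' moderated value for areB deletion over wild type in the same medium. The standard error (SE) printed after ± was recovered from the authors' adjusted p-value, or borrowed from the gene's other comparisons where an adjusted p of 1 allowed no recovery. In mycelium taken as a whole, fewer cells of a type and less RNA per cell cannot be told apart.

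As a check of the labels, areB was listed at 0 in all 4 deletion groups, against 67.9 to 93.9 in the wild type groups. The deleted nkuA was likewise listed at 0 in the deletion strain, against 103 to 137 in the wild type. The group sums of normalized counts lay between 2.75e+06 and 3.01e+06. Counts per library were not used here, so depth is unknown. Of 11 conidiophore and conidium markers, 8 were in the table and rodA, dewA and ivoB were not matched. The 5 of them that are not regulators described here (vosA, conJ, yA, wA and catA) summed to 419 on fructose-urea and 317 on fructose-ammonium in the deletion strain, against 434 and 232 in the wild type. On glucose they summed to 238 and 237 in the deletion strain, against 173 and 201 in the wild type. Of 9 markers of sexual structures 7 were in the table, lsdA and mat1 being unmatched, and their sum on fructose was 3399 and 3827 in the deletion strain, against 8619 and 5072 in the wild type. On glucose that sum was 440 and 366 in the deletion strain, against 448 and 487 in the wild type. Most of each fructose sum was cpeA, at 2929 and 3438 in the deletion strain, against 5635 and 3505 in the wild type. On fructose nosA, steA, esdC and rosA had lower deletion means with either nitrogen source. On fructose-ammonium, where cpeA was nearly level, nosA had 98.6 in the deletion strain, against 599 in the wild type. There esdC had 35.9 against 490, steA 96.5 against 202 and rosA 4.37 against 71.3. The deletion mean was slightly higher for nsdD on fructose-urea (142 against 137) and for mutA on fructose-ammonium (0.234 against 0). Among those sexual markers mutA was listed at 0 in the wild type on fructose-ammonium and in the deletion strain on glucose-urea, and rosA in the wild type on glucose-urea.

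On fructose 9 of the 10 regulators had a lower mean in the deletion strain than in the wild type with either nitrogen source, and wetA was the exception. None of the 10 passed the authors' DESeq2 test at an adjusted p under 0.05 in any medium. Over all 8639 genes tested the share called was 2.22% on fructose-urea, 2.51% on fructose-ammonium, 1.88% on glucose-urea and 1.91% on glucose-ammonium. At a recovered unadjusted p under 0.05, fluG and flbE passed on fructose-urea, against 11.7% of all genes. On fructose-ammonium fluG, flbA and flbB passed, against 13% of all genes. On glucose wetA alone passed with urea, against 7.78% of all genes, and flbB and flbC passed with ammonium, against 7.58%.

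**Figure D1:**
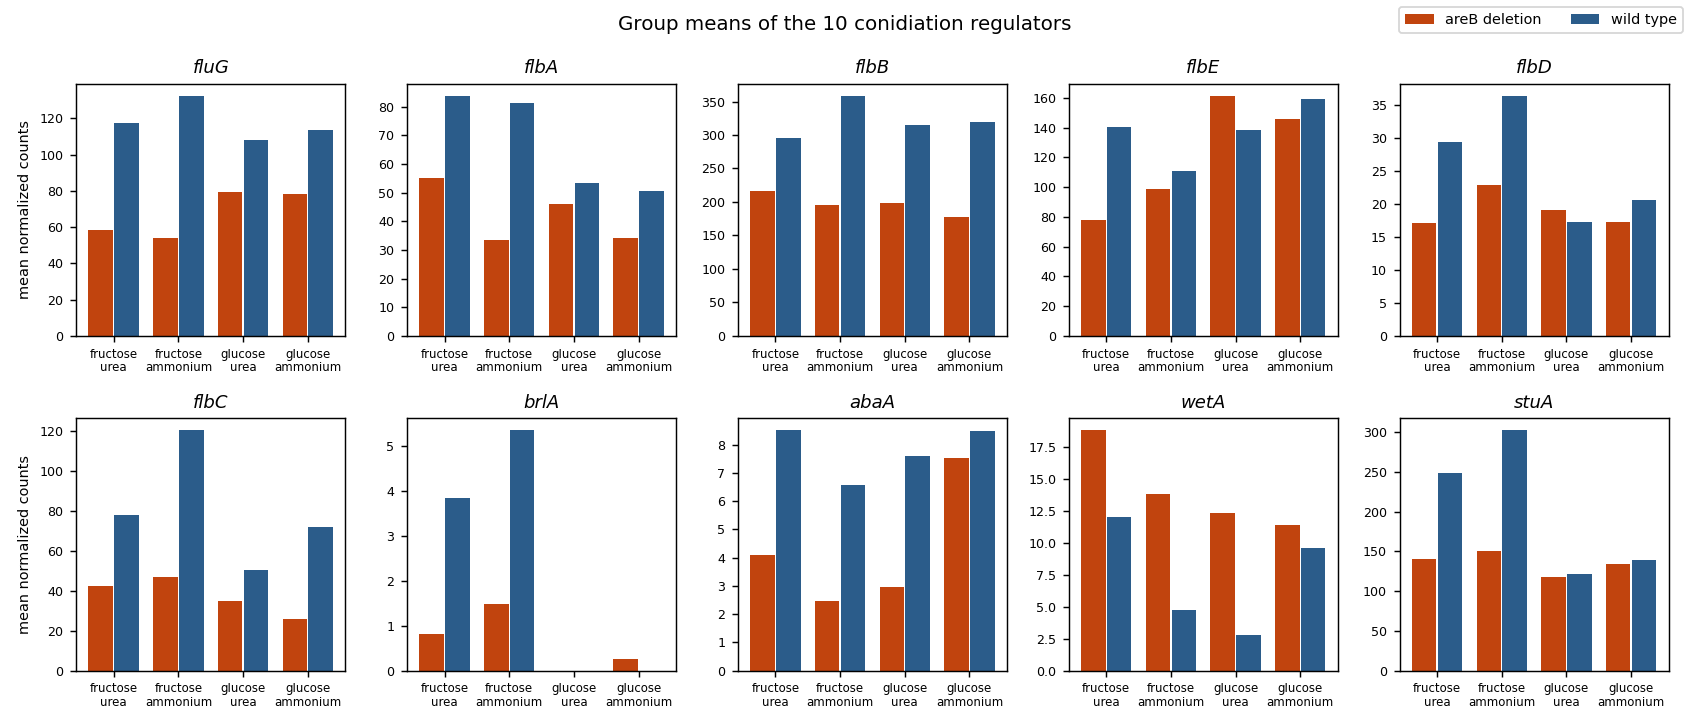
Authors' mean normalized counts (vertical axes, each starting at 0 and scaled per gene) of the 10 regulators in the 4 media, with areB deletion bars left of wild type bars and no error, since group means carry none. On fructose every gene but wetA has a shorter deletion bar, and brlA is listed at 0 in the deletion strain on glucose-urea and in the wild type on both glucose media.

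FluG, a protein related to glutamine synthetase that is needed for the earliest signal, was the regulator with the lowest adjusted p. On fructose fluG averaged 58.2 with urea and 54.0 with ammonium in the deletion strain, against 117 and 133 in the wild type. On glucose it averaged 79.5 and 78.1 in the deletion strain, against 108 and 114 in the wild type. All 4 deletion means were thus below all 4 wild type means, and the share of all genes with that order was not counted. The authors' deposited table gave fluG a log2 fold change of -1.20 ± 0.40 on fructose-ammonium, with an adjusted p of 0.074, and of -0.93 ± 0.39 on fructose-urea, with an adjusted p of 0.26. The first of these is a fold of 0.435, with a 95% interval from the recovered SE of 0.254 to 0.744. On glucose the log2 fold changes of fluG in the authors' deposited table were -0.42 with urea and -0.51 with ammonium, both with an adjusted p of 1.

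FlbA, a regulator of G protein signalling that opposes the growth signal of the Gα subunit FadA, had a lower mean in the deletion strain within each medium. Its gene averaged 55.1 with urea and 33.6 with ammonium on fructose in the deletion strain, against 83.9 and 81.4 in the wild type. On glucose flbA averaged 45.9 and 34.2 in the deletion strain, against 53.3 and 50.6 in the wild type. The difference between strains was thus wider with ammonium than with urea on fructose, where the authors' deposited table gave log2 fold changes of -1.11 ± 0.51 with ammonium (adjusted p 0.31) and -0.54 ± 0.51 with urea (adjusted p 0.81). The difference between these was 0.57 ± 0.72 (urea minus ammonium), less than its own SE. On glucose the authors' deposited table gave flbA -0.20 with urea and -0.50 with ammonium, each with an adjusted p of 1.

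FlbB is a bZIP transcription factor that sits at the hyphal tip and in nuclei, FlbE is its partner at the tip, and FlbD is a Myb-type factor that acts with FlbB in the nucleus. On fructose flbB averaged 217 with urea and 195 with ammonium in the deletion strain, against 296 and 359 in the wild type. On glucose flbB averaged 198 and 178 in the deletion strain, against 314 and 319.9 in the wild type. Among the 9 regulators with a fold change in all 4 media its log2 fold changes lay closest together. Every deletion mean was between 178 and 217 and every wild type mean between 296 and 359. As for fluG, the share of all genes with means apart in this way was not counted. The authors' deposited table gave flbB log2 fold changes of -0.43 ± 0.33 on fructose-urea and -0.84 ± 0.33 on fructose-ammonium (adjusted p 0.72 and 0.18). On glucose the authors' deposited table gave it -0.64 ± 0.33 and -0.81 ± 0.33 (adjusted p 0.66 and 0.34), the SEs here being its own. Next to flbB in the RefSeq annotation lies cut2, which had 22.1 in the deletion strain on glucose-ammonium, against 140.1 in the wild type. The authors' deposited table gave cut2 a log2 fold change of -2.06 ± 0.67 there, with an adjusted p of 0.092, and it was named after its values were seen.

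The partner gene flbE had its widest strain difference on fructose-urea. It averaged 78.0 on fructose-urea in the deletion strain, against 140.3 in the wild type, and this was the lowest of its 8 means. In the other media flbE averaged 99.0 on fructose-ammonium, 162 on glucose-urea and 146 on glucose-ammonium in the deletion strain, against 111, 138 and 159 in the wild type. On glucose-urea the deletion mean was therefore the higher one. The authors' deposited table gave flbE a log2 fold change of -0.81 ± 0.28 on fructose-urea, with an adjusted p of 0.10, and of -0.16 ± 0.28, 0.23 and -0.13 in the other media, with adjusted p of 0.92, 1 and 1. RefSeq places flbE over part of AN0720, and whether counting used strand is not given. How reads within that overlap were counted is therefore unknown. AN0720 was higher in the deletion strain on fructose-urea, at 307, against 254 in the wild type, the opposite order to flbE. On the other side of flbE lies AN0722, which has no symbol in the table and was named after its values were seen. It passed the test on fructose in the authors' deposited table, with log2 fold changes of -0.86 ± 0.23 with urea (adjusted p 0.014) and -0.75 ± 0.23 with ammonium (adjusted p 0.041, or 0.058 when all log2 fold changes were recentred on the median gene).

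The Myb-type gene flbD had means of 17.2 on fructose-urea and 23.0 on fructose-ammonium in the deletion strain, against 29.5 and 36.5 in the wild type. On glucose flbD averaged 19.1 and 17.2 in the deletion strain, against 17.3 and 20.6 in the wild type. Its 2 wild type fructose means thus stood above the other 6, which spanned 17.2 to 23.0. The authors' deposited table gave flbD -0.65 ± 0.55 and -0.56 ± 0.55 on fructose, with adjusted p of 0.76 and 0.78, and 0.15 and -0.23 on glucose, with adjusted p of 1.

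FlbC, a zinc finger factor that can bind upstream of brlA and act in parallel to the FlbB branch, had a lower mean in the deletion strain in all 4 media. On fructose flbC averaged 42.5 with urea and 46.7 with ammonium in the deletion strain, against 78.0 and 120.4 in the wild type. On glucose it averaged 34.7 and 25.7 in the deletion strain, against 50.2 and 72.0 in the wild type. The wild type mean was higher with ammonium than with urea on either sugar. The authors' deposited table gave flbC log2 fold changes of -1.14 ± 0.61 and -1.22 ± 0.61 with ammonium on fructose and on glucose (adjusted p 0.41 and 0.62), and -0.72 ± 0.61 and -0.44 with urea (adjusted p 0.76 and 1).

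Below the upstream genes lies brlA, the zinc finger factor whose activation commits a hypha to conidiophore growth, and its highest mean in any group was 5.35. It averaged 0.811 on fructose-urea and 1.49 on fructose-ammonium in the deletion strain, against 3.84 and 5.35 in the wild type. On glucose brlA was listed at 0 with urea and at 0.248 with ammonium in the deletion strain, and at 0 with both nitrogen sources in the wild type, so no fold is given there. The authors' deposited table gave brlA -1.10 ± 0.80 and -1.01 ± 0.80 on fructose as log2 fold changes, with adjusted p of 0.67 and 0.68. At these means the size depends on how low counts are treated: on fructose-urea the log2 ratio of the group means was -2.11 with a pseudocount of 0.1 and -0.36 with a pseudocount of 10. The locus is described in the table as holding overlapping alpha and beta units, and the values cannot separate them.

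AbaA, a TEA-type factor that acts downstream of BrlA in phialides, had a lower mean in the deletion strain in every medium. Its gene averaged 4.08 on fructose-urea and 2.47 on fructose-ammonium in the deletion strain, against 8.51 and 6.58 in the wild type. On glucose abaA averaged 2.95 and 7.55 in the deletion strain, against 7.62 and 8.48 in the wild type. The wild type means spanned 6.58 to 8.51, and 3 of the 4 deletion means lay below 4.1. The authors' deposited table gave abaA -0.74 ± 0.73, -0.85 ± 0.74, -0.94 and -0.13 in the order fructose-urea, fructose-ammonium, glucose-urea and glucose-ammonium, with adjusted p from 0.73 to 1.

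WetA, which acts last and is needed for the wall and dormancy of the conidium, was the 1 regulator with a higher mean in the deletion strain in every medium. On fructose wetA averaged 18.8 with urea and 13.8 with ammonium in the deletion strain, against 12.0 and 4.78 in the wild type. On glucose it averaged 12.3 and 11.4 in the deletion strain, against 2.76 and 9.60 in the wild type. The deletion means thus stayed within 11.4 and 18.8, while the wild type means spanned 2.76 to 12.0. The authors' deposited table gave wetA a log2 fold change of 1.57 ± 0.65 on glucose-urea, with an adjusted p of 0.35 and a 95% interval of 0.29 to 2.84. In the remaining media the authors' deposited table gave wetA 0.59 ± 0.62, 1.24 ± 0.65 and 0.18, with adjusted p of 0.84, 0.40 and 1. Of the 5 other conidiophore and conidium markers, conJ, yA and catA had higher deletion means on fructose-ammonium and both glucose media, and vosA and wA had lower ones. On fructose-urea yA, wA and catA had higher deletion means and conJ and vosA lower ones, with catA at 184 in the deletion strain, against 182 in the wild type. The spore catalase gene catA had 105 on fructose-ammonium and 51.4 on glucose-urea in the deletion strain, against 31.7 and 10.4 in the wild type. The authors' deposited table gave catA moderated log2 fold changes of 0.96 ± 0.80 (adjusted p 0.70) and 1.01 there. The conidial laccase gene yA had 98.7 on fructose-ammonium and 82.1 on glucose-urea in the deletion strain, against 79.3 and 60.9 in the wild type. Its log2 fold change on fructose-ammonium was 0.30 ± 0.31 (adjusted p 0.79). In those media vosA had 63.3 and 61.5 in the deletion strain, against 73.9 and 65.6 in the wild type. The wA means were 36.5 and 24.7, against 43.4 and 34.6. On fructose-urea vosA had 57.0 in the deletion strain, against 123 in the wild type. None of these 5 markers passed the authors' test in any medium. The part of these markers in the wetA values was not tested.

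StuA, an APSES-type factor, had its highest means in the wild type on fructose. On fructose stuA averaged 140.0 with urea and 151 with ammonium in the deletion strain, against 248 and 302 in the wild type. On glucose it averaged 118 and 134 in the deletion strain, against 122 and 139 in the wild type. The strains were thus apart on fructose and nearly level on glucose. The authors' deposited table gave stuA -0.73 ± 0.50 and -0.90 ± 0.50 on fructose, with adjusted p of 0.65 and 0.46, and -0.05 in both glucose media, with adjusted p of 1. The stuA locus too is described as holding alpha and beta units, which these values do not separate.

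Set in order over the 8 groups, neighbouring means of a regulator lay close together. Sorting by itself makes such steps small, so they do not tell whether groups differed. Distances are given in recovered SEs of the gene's moderated strain comparison, and the error of the means themselves is unknown. Leaving out groups at 0, the widest step between neighbours was 1.42 recovered SEs, for stuA between the deletion strain on fructose-ammonium and the wild type on fructose-urea. The distance between the highest and the lowest mean was 1.90 SEs for flbD and 3.77 SEs for flbE, with the other 8 genes between these.

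**Figure D2:**
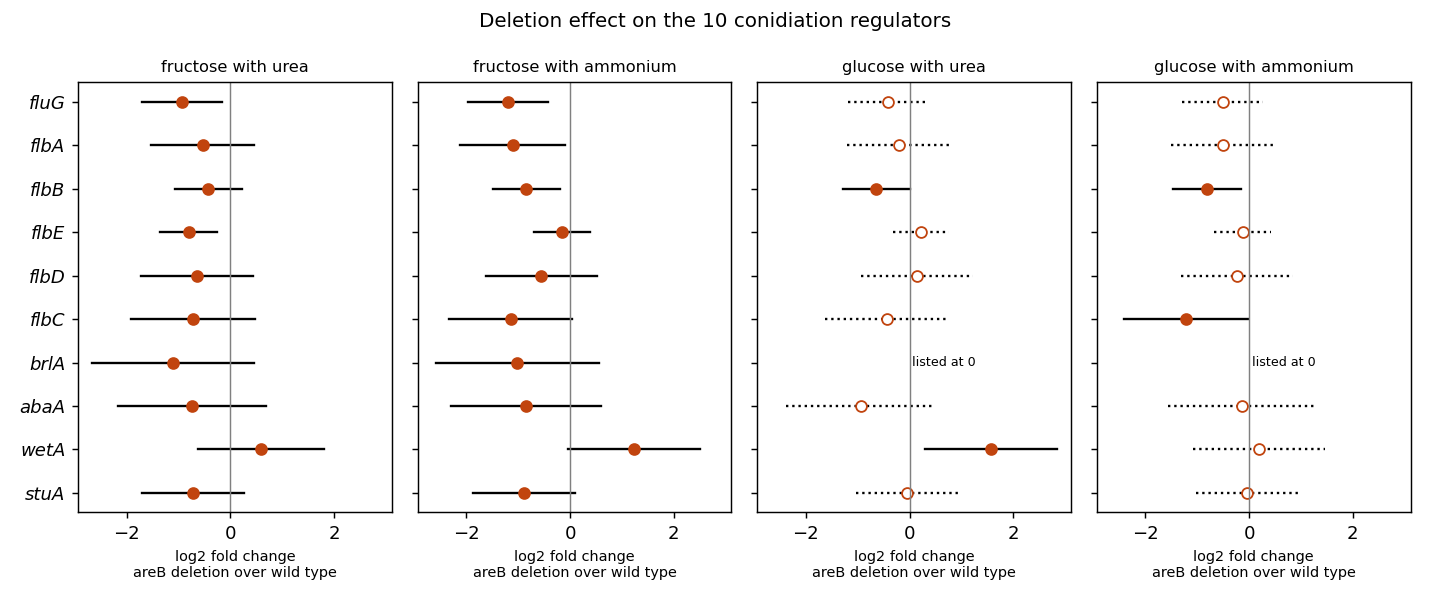
Log2 fold change between areB deletion and wild type (horizontal axes, above 0 where the deletion is higher) for the 10 regulators in the 4 media, with 95% intervals from recovered standard errors. Filled points with solid lines have their own standard error, open points with dotted lines a borrowed one, and brlA is marked as listed at 0 where a glucose group was listed at 0. On fructose 9 of 10 points lie left of 0 in each panel and wetA lies right of it.

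By direction alone, the log2 fold change in the authors' deposited table was below 0 for 9 of 10 regulators in each fructose medium, where 52.3% of all genes with urea and 51.8% with ammonium were below 0. It was below 0 for 6 of 9 on glucose-urea and 8 of 9 on glucose-ammonium, against 50% and 52.7% of all genes, brlA being left out. The median over the regulators was -0.73, -0.87, -0.20 and -0.23 on fructose-urea, fructose-ammonium, glucose-urea and, last, glucose-ammonium, against -0.03, -0.03, 0.00026 and -0.02 over all genes. A log2 fold change of -1 or lower was given for brlA on fructose-urea, against 7.28% of all genes. It was given for brlA, fluG, flbA and flbC on fructose-ammonium, against 7.09%. On glucose it was given for none with urea, against 1.78%, and for flbC with ammonium, against 2.68%. Of the 9 regulators with means above 0 in every group, 6 (fluG, flbA, flbB, flbC, abaA and stuA) were below 0 in all 4 media, against 22.1% of all genes, and wetA was above 0 in all 4, against 19.7%.

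Whether the deletion effect differed between media was tested for each gene as the difference of its log2 fold changes over their joint recovered SE. At an adjusted p under 0.05 no regulator and none of the 8611 genes tested (0%) passed in any of the 4 pairs of media. At an unadjusted p under 0.05, flbE passed between the sugars with urea, against 2.87% of all genes. No regulator passed between the sugars with ammonium, against 1.3% of all genes. None passed between the nitrogen sources on fructose or on glucose, against 0.627% and 0.766%. In all 4 pairs the share of genes was below the 0.05 that no difference would give, so the test was conservative. Passing none of the genes therefore does not show that deletion effects were alike between media. For flbE the difference of log2 fold changes, fructose-urea minus glucose-urea, was -1.03 ± 0.39 with a 95% interval of -1.80 to -0.27 and an adjusted p of 1. The glucose SE in that test was borrowed. For stuA the same difference was -0.68 ± 0.71 with urea, with an interval of -2.07 to 0.71, and -0.85 ± 0.71 with ammonium, with an interval of -2.24 to 0.54. The sugar dependence of the stuA deletion effect was within its error, and this test did not settle it. For wetA the difference between urea and ammonium on glucose was 1.38 ± 0.92.

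The carbon source was compared within each strain by the ratio of the authors' means, fructose over glucose, with no test. A recovered SE set beside such a ratio belongs to the moderated strain comparison of that gene. It is not the error of the unmoderated ratio, which is unknown and may be larger. In the deletion strain stuA was 1.19 times as high on fructose as on glucose with urea and 1.13 times with ammonium. In the wild type those ratios were 2.03 and 2.18, where the recovered SE of stuA was 0.50 on the log2 scale. For flbD the deletion ratios were 0.899 and 1.33, and the wild type ratios 1.70 and 1.77. For flbA the deletion ratios were 1.20 and 0.983, and the wild type ratios 1.57 and 1.61. For flbC the deletion ratios were 1.23 and 1.82, and the wild type ratios 1.55 and 1.67. These 4 genes thus had higher wild type means on fructose with either nitrogen source.

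In the deletion strain fluG and flbE ran the other way, with lower means on fructose than on glucose. With ammonium flbE did so in the wild type too. The fluG ratios were 0.732 with urea and 0.691 with ammonium in the deletion strain, against 1.09 and 1.17 in the wild type. On the log2 scale those deletion ratios were 1.12 and 1.33 recovered SEs from 0. The flbE ratios were 0.483 and 0.680 in the deletion strain, against 1.02 and 0.697 in the wild type. The ratios of flbB lay between 0.941 and 1.12 in every case. For wetA the deletion ratios were 1.53 and 1.21, while the wild type ratios were 4.35 with urea and 0.498 with ammonium. Its wild type order of sugars thus turned with the nitrogen source, on low means of 2.76 to 12.0. On the log2 scale those wild type ratios were 2.76 and 1.35 recovered SEs from 0. Past a log2 ratio of 1 in either direction lay flbE in the deletion strain with urea and abaA (ratio 0.328) in the deletion strain with ammonium, against 16.4% and 16.8% of all genes. The abaA ratio rests on low means of 2.47 and 7.55 and was 1.77 recovered SEs from 0 on the log2 scale. In the wild type wetA and stuA lay past it with urea and stuA with ammonium, against 30.6% and 23.5% of all genes. On the scale log2(mean + 1), flbE (-1.04) and stuA with urea (1.02) stood close to that limit: flbE was inside it once group means were scaled to the same sum, and in the wild type with urea wetA alone was past it under median-ratio scaling.

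The nitrogen source was compared in the same way. No regulator lay past a log2 ratio of 1, urea over ammonium, in the deletion strain on fructose, against 3.17% of all genes, and abaA alone (ratio 0.391) on glucose, against 4.12%. The abaA ratio rests on low means of 2.95 and 7.55 and was 1.52 recovered SEs from 0 on the log2 scale. In the wild type wetA was past it in opposite directions, with ratios of 2.51 on fructose and 0.287 on glucose. Past that limit lay 10.1% and 6.3% of all genes. The wetA log2 ratios were 1.81 and 2.31 recovered SEs from 0. The flbA mean in the deletion strain was 1.64 times as high with urea as with ammonium on fructose and 1.34 times on glucose, against 1.03 and 1.05 times in the wild type. For flbC the urea means were 0.910 and 1.35 times the ammonium means in the deletion strain, against 0.648 and 0.698 times in the wild type. None of these flbA and flbC log2 ratios was more than 1.36 recovered SEs from 0.

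**Figure D3:**
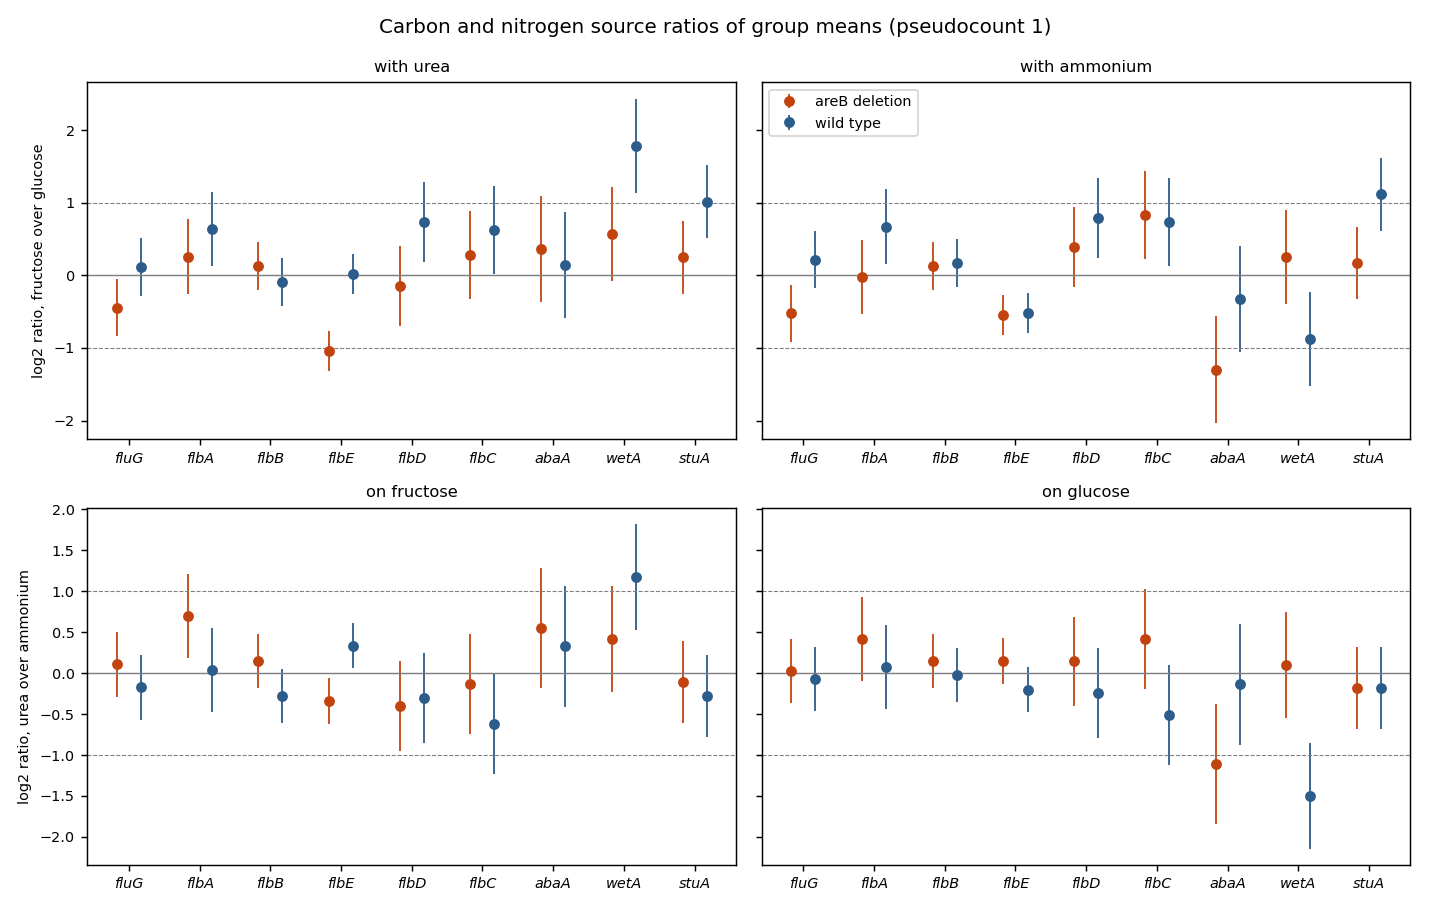
Log2 ratio of the authors' group means with a pseudocount of 1 (vertical axes) for 9 regulators, fructose over glucose in the upper row and urea over ammonium in the lower row, with areB deletion points left of wild type points, bars of 1 recovered standard error and dashed lines at 1 and -1. The bars come from the moderated strain comparison and are not the error of these ratios, which is unknown. In the upper row stuA lies near 1 in the wild type and near 0 in the deletion strain, and brlA is not drawn because 3 of its glucose means are 0.

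Across the 8 group means the regulators did not follow a single pattern. Over log2(mean + 1), 31 of the 45 pairs of regulators had a Pearson coefficient above 0. The share over pairs of all genes was not counted, so this number is not a trait of the regulators. These coefficients describe 8 means from 4 media and 2 strains, not independent samples. The highest were brlA with stuA (0.95), flbD with stuA (0.95) and brlA with flbD (0.90), genes whose wild type fructose means were their highest, followed by flbB with flbC (0.89). The lowest were wetA with fluG (-0.68) and wetA with flbB (-0.68).

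For each regulator with a mean of at least 10, the named gene with the most alike pattern was read from 1360 candidates over the same 8 means. The highest of so many coefficients over so few means is large by selection. The best matches of other genes were not counted, so these likenesses are not traits of the regulators. For fluG it was xgeA, a glucanase gene, with a coefficient of 0.98. For stuA it was hpdA, described as a hydroxyphenylpyruvate dioxygenase gene, also with 0.98. That likeness covers unlike sizes of change, since hpdA had 7.22 on fructose-urea and 9.56 on fructose-ammonium in the deletion strain, against 2947 and 2225 in the wild type. The others were SPA10 for flbA (0.96), arfB, an ADP ribosylation factor gene, for flbB (0.98), the histone H3 gene hhtA for flbC (0.98), palI of the pH signalling pathway for flbD (0.94), the DNA repair gene scaA for flbE (0.94) and the retromer gene vps29 for wetA (0.94).

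Genes around the cascade were described from 4 lists. Of 16 genes of the spore wall and its pigments 8 were in the table, and none passed the authors' test in any medium. At an unadjusted p under 0.05 1, 0, 2 and 0 of the 8 passed in the same order of media, where 11.7%, 13%, 7.78% and 7.58% of all genes did. Their median log2 fold change was 0.10, 0.48, 0.44 and 0.31 in that order, against -0.03, -0.03, 0 and -0.02 over all genes. The highest were ivoA, a pigment synthetase gene of the conidiophore, and conJ, a conidiation gene induced by light. On glucose-urea ivoA had 8.29 in the deletion strain against 1.17 in the wild type, and conJ had 18.0 in the deletion strain against 1.00 in the wild type. The authors' deposited table gave moderated log2 fold changes of 1.79 ± 0.72 and 1.70 ± 0.81 there, with adjusted p of 0.31 and 0.54. Both are smaller than the ratios of these low means. The lowest were ygA, a copper transporter gene needed for spore colour, and phiA, needed for phialides. On fructose-ammonium ygA had 131 in the deletion strain against 184 in the wild type, and phiA had 4.57 in the deletion strain against 11.7 in the wild type.

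Of 21 other regulators of asexual development 17 were in the table, and none passed in any medium, with 5, 4, 0 and 0 of the 17 at an unadjusted p under 0.05, against the same 11.7%, 13%, 7.78% and 7.58% of all genes. Their median log2 fold change was -0.41 and -0.40 on fructose and 0.03 and -0.10 on glucose. The lowest were medA, which sets the timing of brlA expression, and laeA, of the velvet complex. On fructose medA averaged 110.2 with urea and 81.5 with ammonium in the deletion strain, against 261 and 249 in the wild type. The authors' deposited table gave medA -1.11 ± 0.49 and -1.43 ± 0.49 there, with adjusted p of 0.29 and 0.092. The laeA means were 59.7 and 53.8 on fructose in the deletion strain, against 115 and 144 in the wild type, with adjusted p of 0.55 and 0.17 in the authors' deposited table. The highest were veA, the light-dependent velvet gene, and rgdA, whose log2 fold changes ran from -0.43 to 0.83 and from 0.09 to 0.53 in the authors' deposited table. The sexual marker sums given above were lower in the deletion strain in the same fructose media, although cpeA was nearly level on fructose-ammonium. Their part in these values was not tested.

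FlbA acts against growth signalling, and 14 of 16 genes listed around that signalling were in the table. The list mixed signal genes with regulators of G protein signalling such as rgsA, described as a negative regulator of GanB. Its medians therefore give no direction of signalling. In this list rgsA, like flbA a gene of a regulator of G protein signalling, fell on fructose-ammonium to 179 in the deletion strain, against 375 in the wild type. In the authors' deposited table this is a log2 fold change of -1.01 ± 0.31 with an adjusted p of 0.041, which became 0.055 when all log2 fold changes were recentred on the median gene. On fructose-urea rgsA had 171 in the deletion strain against 328 in the wild type, with an adjusted p of 0.10 in the authors' deposited table. The remaining 13 genes passed in no medium, and the list had 2, 4, 0 and 4 of its 14 genes at an unadjusted p under 0.05, against 11.7%, 13%, 7.78% and 7.58% of all genes. The list's median log2 fold change was -0.31, -0.23, -0.20 and -0.36 in the same order of media. The G protein gamma subunit gene gpgA was next lowest, with 25.4 on glucose-ammonium in the deletion strain against 46.5 in the wild type. The beta subunit gene sfaD and the protein kinase A gene pkaA were highest, with log2 fold changes from -0.31 to 0.11 and from -0.02 to 0.17 in the authors' deposited table.

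All 7 genes of the light and hormone list were in the table, and none passed in any medium, with 1 of the 7 at an unadjusted p under 0.05 in each, against 11.7%, 13%, 7.78% and 7.58% of all genes. Their median log2 fold change was 0.24, 0.08, -0.02 and -0.02. The oxylipin synthesis genes of this list lay at both ends. On glucose ppoA averaged 308 with urea and 510 with ammonium in the deletion strain, against 109 and 146 in the wild type. In the authors' deposited table its log2 fold change was 1.58 ± 0.54 on glucose-ammonium, with an adjusted p of 0.13. On fructose ppoC averaged 416 with urea and 383 with ammonium in the deletion strain, against 2247 and 2359 in the wild type. The authors' deposited table gave ppoC moderated log2 fold changes of -1.65 ± 0.78 and -1.78 ± 0.78 there, with adjusted p of 0.36 and 0.26. Both are smaller in size than the ratios of these means. The blue light gene lreB was the next highest, with 14.0 on glucose-urea in the deletion strain against 7.12 in the wild type. The gene ppoB was the next lowest, with 35.4 on fructose-urea in the deletion strain against 71.0 in the wild type.

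**Figure D4:**
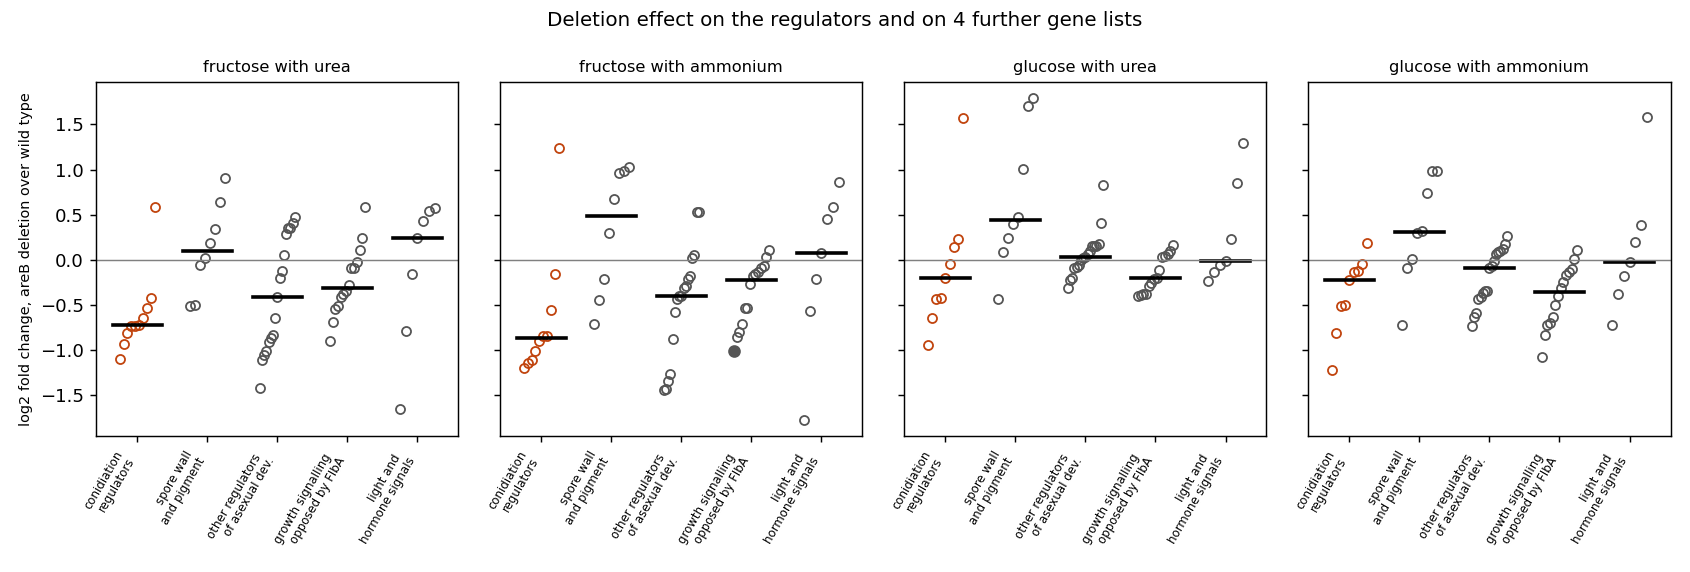
Log2 fold change between areB deletion and wild type (vertical axis, above 0 where the deletion is higher) in the 4 media for the 10 regulators and 4 further gene lists, 1 point per gene, with a bar at each list's median. The only filled point, for a gene past an adjusted p of 0.05, is rgsA on fructose-ammonium, and the spore wall and pigment medians lie above 0 in all 4 panels.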

How the data were processed

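RNA-seq of 24 libraries, 3 labelled biological replicates per group, was used as 1 table of the authors. The deposited table gives a moderated fold change (a ratio with areB deletion on top), a p-value adjusted by the authors over genes, and, as a signal, the authors' mean of normalized counts per group. DESeq2 1.16.1, HTSeq 0.9.1, GATK, Trimmomatic and FastQC are named in the submitters' processing notes. Aligner, build, annotation and strand setting are not given in the sources used. No values per library were used, so depth, the spread between replicates and intervals for levels are unknown.

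Genes were called at an authors' adjusted p under 0.05, over 8639 genes with one. Each p was recovered by inverting the Benjamini-Hochberg adjustment, and the SE is the log2 fold change divided by the corresponding normal deviate. This SE belongs to the moderated fold change, and the error of an unmoderated ratio of means was not recovered. On fructose 8131 genes with urea and 8355 with ammonium gave their own SE. On glucose 1229 with urea and 1277 with ammonium did, 2 regulators in each, and the others took the median SE of their other comparisons. Between the fructose media own SEs lay within 0.1 for 100% of 7876 genes, while on glucose borrowed SEs could not be checked for most regulators. An adjusted p of 1 allowed any unadjusted p from 0.142 (glucose-urea) or 0.148 (glucose-ammonium) upwards. Ratios of group means used a pseudocount of 1 on the log2 scale, and genes with a mean of 0 in either group were left out of ratios and directions. The differences between media were tested 2-sided and adjusted over 8611 genes.

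The regulators, lists and tests were chosen with earlier results of these data known. All 10 regulators were named, plus in each list the genes called and the 2 highest and 2 lowest by mean log2 fold change, plus the most alike gene of each regulator with a mean of at least 10. Names and neighbours came from the RefSeq annotation of assembly ASM1142v1, which matched 8257 of 8728 identifiers, and no coordinates are printed. Python 3.11.15, numpy 2.4.6, pandas 2.3.3, scipy 1.17.1 and matplotlib 3.10.9 were used.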

Additional observations from a re-analysis of the deposited data

How the results depend on the processing

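Other pseudocounts (0.1 and 10), recentring on the median gene, other scalings of group means, a mean of at least 10 and a looser threshold gave 591 values of single regulators. Of these 4 changed sign, all log2 ratios of group means near 0: flbA carbon, deletion with ammonium (0.03 against -0.02), and flbB carbon, wild type with urea (0.02 against -0.09), at equal sums, and flbE carbon, wild type with urea (-0.07 against 0.02), and flbB nitrogen, wild type on glucose (0.01 against -0.02), by median ratio. By over 1.5 times 54 changed size, 35 of them of brlA, abaA or wetA, and 7, all of these genes, moved by more than 1 recovered SE. At an adjusted p under 0.1 on fructose-ammonium fluG was the 1 regulator called (adjusted p 0.074), and 347 genes in all against 217. The counts of regulators past a log2 ratio of 1 depended on the pseudocount: with 10 they fell to 0 in every ratio named above except the wild type carbon ratio with ammonium, and with 0.1 they were 2 in the deletion strain with ammonium. The carbon count of the deletion strain with urea was 0 at equal sums, and that of the wild type with urea 1 under median-ratio scaling. Recentring left 0 growth signalling genes called on fructose-ammonium, and moved the light and hormone median on glucose-ammonium to 0.00039, against -0.02. No paired analysis was possible because the columns hold group means without replicate numbers. Fits leaving out each replicate in turn were not run for the same reason, so no result has a replicate check here.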
